A study of Mus musculus with 12 samples.

Results

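The H19 locus on mouse chromosome 7 was examined in C2C12, a line of mouse myoblasts whose cells stop dividing and fuse into myotubes in low serum. The locus was defined by 4 gene names: H19, the microRNA gene Mir675, and the small RNA genes Gm27786 and Gm27483. Of these, 3 were among the 27942 genes analysed, and Mir675 was not analysed here, so that it is described by its annotation and sequence. The locus was chosen with its difference between the study's groups already known. That difference is described below, and nothing is read from tests of it. All cells were kept in medium with 2% horse serum for 7 days, with no added compound in the control group and with 4-octyl itaconate (OI), an ester form of the metabolite itaconate that enters cells, at 25 µmol/L in the OI group. Both groups were differentiating cultures of the same line, with 3 RNA-seq libraries each, and no undifferentiated cells were analysed. The labels do not say whether the libraries of a group came from separate cultures, so the spread between them may be technical.

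H19 is a spliced, polyadenylated RNA that codes for no known protein and is transcribed from the maternal chromosome only. It lies beside Igf2, the growth factor gene expressed from the paternal chromosome, and a differentially methylated control region between them binds CTCF on the maternal copy. H19 is abundant in fetal muscle and liver, is largely silenced after birth, and is induced when myoblasts differentiate. Its first exon carries the hairpin from which Drosha releases the microRNA miR-675, which in mouse muscle cells is known to act on the BMP effectors Smad1 and Smad5 and the replication factor Cdc6.

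H19 (ENSMUSG00000000031) is annotated as a lincRNA on the minus strand, chr7:142575529-142578143 in GRCm38 (mm10). The deposited length of 2286 bases equals that of its GENCODE transcript H19-202, which has 5 exons, the first of 1315 bases. The Mir675 hairpin lies on the same strand at bases 997 to 1080 from the start of H19. Gm27786 (ENSMUSG00000098816, 70 bases, chr7:142577849-142577918) and Gm27483 (ENSMUSG00000099143, 71 bases, chr7:142576853-142576923) are of the biotype misc_RNA and lie on the plus strand, opposite to bases 226 to 295 and 1221 to 1291 of H19. All 3 embedded genes therefore lie in exon 1, and each is contained whole in an exon of 3 of the 7 annotated H19 transcripts. Only H19-202 contains all 3. Gm27786 is shared with H19-204 and H19-206, Gm27483 with H19-205 and H19-207, and Mir675 with H19-205 and H19-206.

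**Figure D1:**
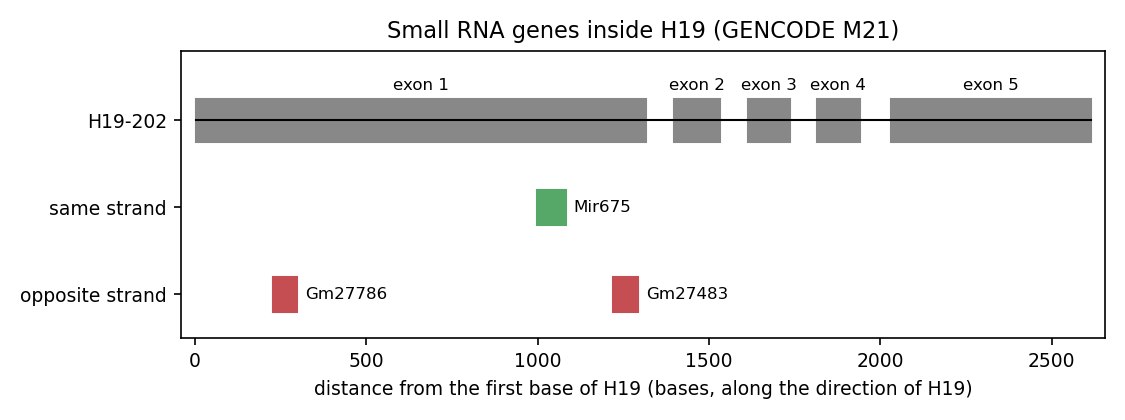
Map of H19 along its direction of transcription, with distance in bases from its first base on the x axis. The exons of H19-202 are in grey, Mir675 on the same strand in green, and Gm27786 and Gm27483 on the opposite strand in red; all 3 small genes fall in exon 1.

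The microRNA sequences are shown because they are the known product of the locus. They come from RefSeq (GRCm38.p6), the seeds (bases 2 to 8) in capitals, and in the hairpin the mature arms in capitals.
mmu-miR-675-5p: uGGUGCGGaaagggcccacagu
mmu-miR-675-3p: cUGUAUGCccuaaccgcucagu
Mir675 hairpin: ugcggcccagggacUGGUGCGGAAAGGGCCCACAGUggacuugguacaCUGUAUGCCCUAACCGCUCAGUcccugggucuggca
The arms have different seeds. RNAfold gave the 84-base hairpin a minimum free energy of -56.0 kcal/mol. Over all 2203 windows of that length along H19-202 the median was -20.2 kcal/mol, and the lowest value, -56.1 kcal/mol, was that of the window shifted by 1 base.

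The stretches of exon 1 that hold the other small genes are shown because the reads counted for these genes fall there. Each is written in the direction of H19, from GENCODE M21, with the bases that pair with the small gene in capitals.
H19 over Gm27786 (chr7:142577819-142577948, minus strand): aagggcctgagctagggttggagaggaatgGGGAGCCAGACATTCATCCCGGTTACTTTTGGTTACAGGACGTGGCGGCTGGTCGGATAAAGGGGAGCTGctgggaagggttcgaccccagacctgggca
H19 over Gm27483 (chr7:142576829-142576953, minus strand): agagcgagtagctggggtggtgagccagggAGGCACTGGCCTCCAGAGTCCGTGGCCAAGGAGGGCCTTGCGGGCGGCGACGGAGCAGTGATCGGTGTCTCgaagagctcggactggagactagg
Gm27786: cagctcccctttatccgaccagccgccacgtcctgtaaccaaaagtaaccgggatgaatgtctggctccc
Gm27483: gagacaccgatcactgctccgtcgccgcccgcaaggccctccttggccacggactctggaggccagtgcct
The last pair gives the genes themselves on their own strand, and each is the exact reverse complement of the capitals above it. Gm27483 is 69.0% G and C and Gm27786 57.1%, against 55.8% over H19-202. The predicted fold of Gm27483 had a minimum free energy of -20.5 kcal/mol on its own strand and -29.6 kcal/mol as H19 sequence. For Gm27786 the values were -13.2 and -16.4 kcal/mol, so both stretches had the lower predicted energy on the H19 strand.

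The authors deposited FPKM values, which scale fragments to gene length and library size. In genes of 1 exon, 99.7% to 100% of these values were whole multiples of what 1 read is worth in the library, to within 0.01 of a read, which gave library sizes of 24441000 to 36274000 reads or fragments. For Gm27786 and Gm27483 the recovered reads were whole in all 6 libraries to within 0.01 of a read. For H19, which has several transcripts, they were not whole, and its read numbers are approximate. Control replicate 1 differed from the other 5 libraries in a few very abundant RNAs: AY036118 reached 70761 FPKM there against 691 to 2450 FPKM elsewhere, and Malat1 reached 1769 FPKM against 312 to 429 FPKM. The genes analysed took 23.9% of its library size, against 5.25% to 5.77% in the others. Most of each library thus lay outside these genes. Of 10 markers fixed for myoblasts and myotubes only Tnnc1, slow and cardiac troponin C, was analysed, at 110 to 140 FPKM in control and 21.9 to 24.7 FPKM in OI. None of the markers fixed for fibroblasts, adipocytes, macrophages or endothelial cells was analysed, so the labelled cell type could be checked against 1 gene only.

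H19 itself had 136, 131 and 131 FPKM in the 3 control replicates and 24.1, 32.1 and 25.9 FPKM in OI replicates 1 to 3. The groups did not overlap, and the lowest control value was 4.07 times the highest OI value. In recovered reads this was about 7599, 9145 and 8963 in control against 1768, 2661 and 1522 in OI. The mean went from 133 ± 2.95 FPKM in control to 27.4 ± 4.20 FPKM in OI (SD, n = 3 each), which left 20.6% of the control level. Without control replicate 1 the control mean was 131 FPKM. As a share of the reads in the genes analysed the groups overlapped: H19 took 0.130% in control replicate 1, 0.562% and 0.569% in control replicates 2 and 3, and 0.0955% to 0.138% in OI. On that scale control replicate 1 fell inside the OI range. The coefficient of variation was 2.23% in control and 15.3% in OI, where replicate 2 was the highest library. In these bulk libraries, fewer cells that express H19 and less H19 per cell cannot be told apart. Tnnc1, the only muscle marker analysed, was also lower in OI, and its part in the H19 result was not tested.

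H19 was among the most abundant genes analysed. By FPKM it ranked between 43 and 50 of 27942 genes in the control libraries and between 122 and 173 in the OI libraries. Among the 5136 genes annotated as lincRNA its rank was 6 or 7 in control and 15 to 17 in OI. Most of each library lay outside the genes analysed, so these are not ranks among all expressed genes. H19 in OI was thus lower but not silent, with at least 1522 recovered reads in every library.

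Gm27786, opposite to the 5′ part of exon 1, had the highest FPKM of the locus. Control replicates 1 to 3 gave 579, 602 and 572 FPKM, from 990, 1287 and 1201 reads. OI replicates 1 to 3 gave 121, 107 and 112 FPKM, from 271, 272 and 201 reads. Control libraries were all above OI libraries, and the spread was small in both groups, with means of 584 ± 16.0 and 113 ± 6.80 FPKM (SD, n = 3 each). The OI mean was 19.4% of the control mean.

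Gm27483, opposite to the 3′ end of exon 1, was the rarer of the small genes. Control replicates 1 to 3 gave 170.0, 172 and 153 FPKM, from 295, 372 and 325 reads. OI replicates 1 to 3 gave 24.1, 31.1 and 31.8 FPKM, from 55, 80 and 58 reads. The groups were again separate, with means of 165 ± 10.5 and 29.0 ± 4.24 FPKM (SD, n = 3 each), so that 17.6% of the control level was left.

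**Figure D2:**
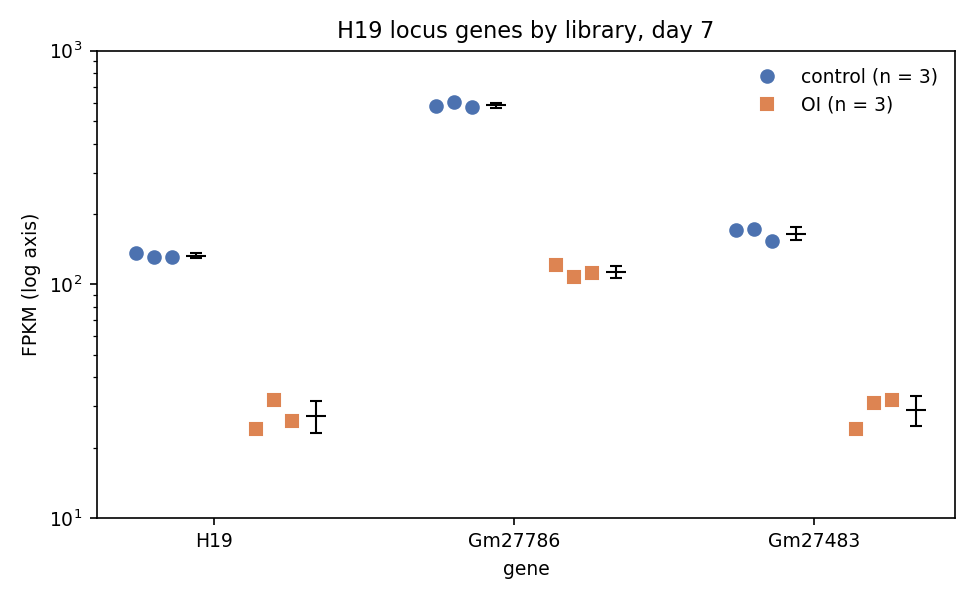
FPKM (log axis) of H19, Gm27786 and Gm27483 in each of 3 control and 3 OI libraries, with the mean and SD of each group as black bars. All OI libraries lie below all control libraries for each gene, H19 at 24.1 to 32.1 FPKM against 131 to 136 FPKM.

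On the log2(FPKM + 1) scale, limma fitted across all 1737 tested genes gave differences of -2.25 ± 0.11 (SE) for H19, -2.36 ± 0.07 for Gm27786 and -2.47 ± 0.12 for Gm27483, OI minus control. The median over all tested genes was -0.02. By size of fall, Gm27483 ranked 1, Gm27786 ranked 3 and H19 ranked 4 of the 1737. All 3 were past a limma adjusted p of 0.05, as were 2.76% of all tested genes in either direction, 1.61% lower and 1.15% higher in OI. For all 3 the groups did not overlap, as for 23.6% of all tested genes in either direction and 12.5% with the lower values in OI. The locus was chosen for this contrast, so nothing is read from these counts. The direction held for all 3 genes under each of the 16 alternatives computed, and all 3 calls held under 15. It could not change with another filter, trend=FALSE, the replicate block or the omission of 1 library. With the analysed genes rescaled to a common sum none of the 3 passed, and the difference of H19 was -1.68. That sum included 70761 FPKM of AY036118 in control replicate 1, against 691 to 2450 FPKM in the other libraries. The part of control replicate 1 in the lost calls was not tested.

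Proportions of the small genes within a library were computed from the same values as the differences, and so are not independent of the choice. Reads of Gm27786 were 13.03%, 14.1% and 13.4% of the H19 reads in control replicates 1 to 3, and 15.3%, 10.2% and 13.2% in OI replicates 1 to 3. The OI libraries lay on both sides of the control range, so the groups overlapped, and an exact permutation test gave p = 0.80 (two-sided, n = 3 each). Reads of Gm27483 were 3.88%, 4.07% and 3.63% of the H19 reads in control, and 3.11%, 3.01% and 3.81% in OI. Here OI replicates 1 and 2 were below the control range and OI replicate 3 was inside it, so the groups overlapped here too (exact permutation p = 0.20, two-sided, n = 3 each). The OI libraries varied more for both genes, with an SD of 2.56 percentage points against 0.530 for Gm27786. With 3 libraries a group the smallest p this test can give is 0.10, so it could not pass 0.05 and does not show that the shares were alike. These are 2 of 3 proportions tested, with adjusted p of 0.80 for Gm27786 and 0.60 for Gm27483.

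**Figure D3:**
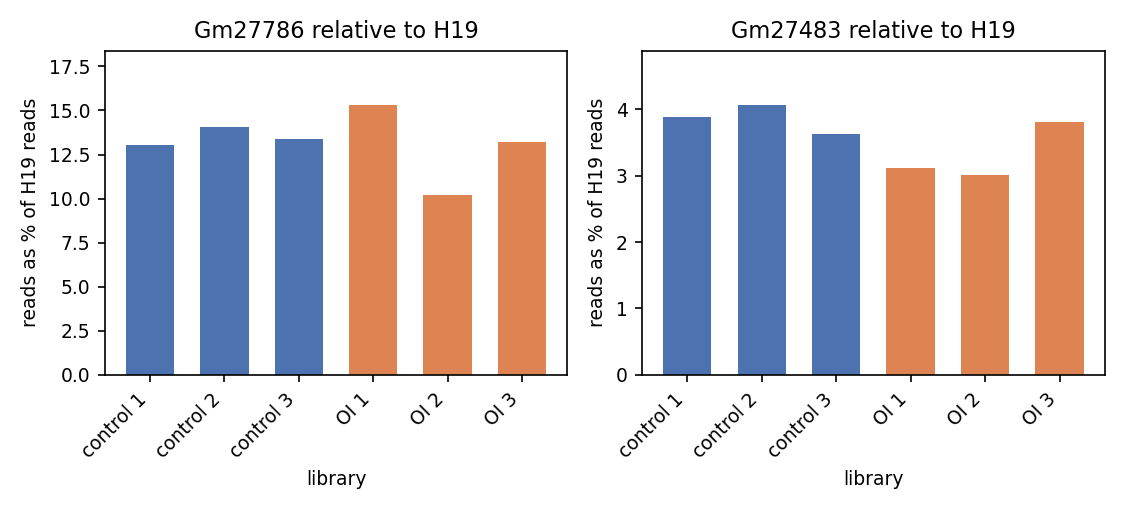
Reads of Gm27786 (left) and Gm27483 (right) as a percentage of H19 reads in each library, 1 bar per library, control in blue and OI in orange. The Gm27786 share runs from 10.2% to 15.3% and the Gm27483 share from 3.01% to 4.07%, and control and OI libraries overlap in both.

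The small genes sit near opposite ends of exon 1 and were counted in whole reads, so the share of Gm27786 in the reads of both was computed. How partly overlapping reads were counted and whether strand was used are not known here, which limits this comparison of the 5′ and 3′ stretch. Gm27786 took 77.0% of the reads of both in control replicate 1 (95% exact Clopper-Pearson interval 74.6% to 79.3%), 77.6% in control replicate 2 (75.5% to 79.6%) and 78.7% in control replicate 3 (76.6% to 80.7%). In OI replicate 1 it took 83.1% (78.6% to 87.0%), in OI replicate 2 77.3% (72.5% to 81.5%) and in OI replicate 3 77.6% (72.03% to 82.5%). OI replicate 1 was thus the highest library, and the other OI libraries were within the control range of 77.0% to 78.7% (exact permutation p = 0.60 over the 6 libraries, adjusted p = 0.80, two-sided, n = 3 each). Here too the test could give no p below 0.10, so it does not show that the shares were alike. These intervals cover counting error only, since reads without molecular identifiers are not independent molecules.

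After the group means were subtracted on the log2(FPKM + 1) scale, Pearson's r with H19 was -0.83 for Gm27786 and 0.61 for Gm27483, given as a description of 6 libraries in 2 groups. OI replicate 2 shows the contrast: it had the highest H19 level and the lowest Gm27786 level of the OI group.

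Per length, Gm27786 was at 4.25 to 4.596 times the FPKM of H19 in control and 3.34 to 5.00 times in OI. Gm27483 was at 1.17 to 1.31 times H19 in control and 0.968 to 1.23 times in OI. How reads that only partly overlap a gene of 70 bases were counted is not known here, and its effect on these ratios was not tested. No source used here says whether strand was used in counting. Reads of H19 and reads of RNA from the opposite strand therefore cannot be told apart over these stretches.

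Other small genes inside exons were compared with their hosts. Pairs outside H19 were taken where the host had a mean of 5 FPKM or more and the embedded gene up to 150 bases. On the opposite strand, 5 of 6 embedded genes had 0.5 times the FPKM of the host or more, with a median ratio of 0.903. Among them were Gm27520 in Xist, the X inactivation RNA (52.4 against 63.0 FPKM), and Gm27443 and Gm27337 in Hotair, a HOX cluster RNA (3.67 and 8.34 against 5.03 FPKM). On the same strand, 3 of 20 reached that ratio and the median was 0.0222. That median comes from pairs fixed at 1 read, so the medians by strand are not comparable. The same-strand pairs with other values ran from 0.112 to 7.33 times the host. For 15 of those 20 the recovered value was exactly 1 read in all 6 libraries, as it was for Gm27694 in Malat1, the abundant nuclear RNA, at 0.397 FPKM. That fixed value stood in 209 of all 27942 genes, 185 of them of up to 150 bases. The 6 opposite-strand ratios ran from 0.0293 to 1.80. The lowest was that of Mir24-1 in Mir3074-1, which also stood at exactly 1 read in all 6 libraries. In H19, Gm27483 lay within that range at 1.21 times the mean FPKM of its host, and Gm27786 lay above it at 4.36 times. The highest same-strand ratio was higher still, at 7.33 for Gm27505 in Neat1 (143 against 19.5 FPKM). For Xist and Hotair neither host nor embedded gene passed limma (adjusted p from 0.50 to 0.94). These pairs were chosen after their values were seen.

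**Figure D4:**
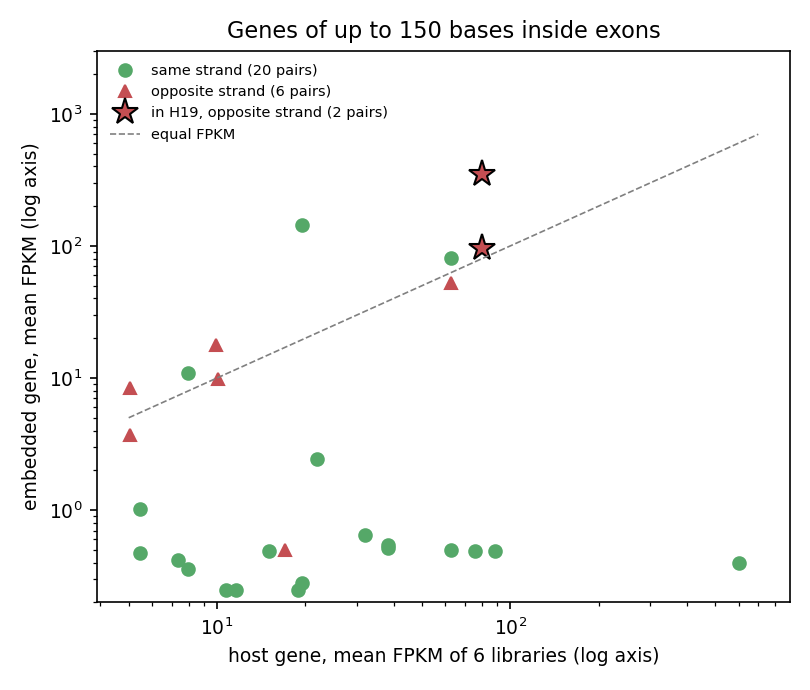
Mean FPKM over 6 libraries of genes of up to 150 bases (y) against that of the gene whose exon holds them (x), both log axes; the dashed line marks equal values. Of the opposite-strand pairs (triangles, and stars for H19), Gm27786 lies highest above the line at 4.36 times its host. Mir24-1 lies lowest below it at 0.0293 times, with exactly 1 read in all 6 libraries. Most same-strand pairs (circles) lie near the value of 1 read, and Gm27505 lies highest above the line at 7.33 times its host.

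Most of the genes analysed near H19 were at or close to 0. Of 45 other genes within 1 Mb of H19, 22 were listed at 0 in all 6 libraries, and 1 passed the filter of 1 FPKM in 3 libraries. That gene, Slc22a18, an organic cation transporter gene imprinted in the neighbouring Kcnq1 domain, averaged 3.33 ± 0.25 FPKM in control against 2.82 ± 0.25 FPKM with OI (SD, 3 libraries each). Its log2 difference was -0.18 ± 0.09 and did not pass (limma adjusted p = 0.378), although the groups did not overlap. No other neighbour exceeded 1.37 FPKM in any library. Igf2 itself was not analysed here. The genes analysed are therefore only a part of those near H19, and the level of the rest is not known here.

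Of the 22 neighbours above 0 but below the filter, 16 had the lower mean FPKM in OI and 6 the higher. Of these, 8 were at 0 in all OI libraries and 3 in all control libraries. The shares over all genes below the filter were not computed, so nothing is read from these counts. Control replicate 1 had 4513 genes of 1 exon above 0, against 3741 to 4098 in the other libraries. Gm32786, Gm45417 and Gm27395 were above 0 in control replicate 1 only. The following were named after their values were seen, and all have the lower mean in OI. Gm33148, a lincRNA gene 13601 bases upstream of H19 on the other strand, had 16, 3 and 16 reads in control replicates 1 to 3 and was at 0 in all 3 OI libraries. Nctc1, which lies 16933 bases downstream of H19 and overlaps a known muscle enhancer of the locus, had 0.0476, 0.114 and 0.0485 FPKM in the control libraries and 0, 0 and 0.0226 FPKM in OI. Igf2os, the antisense transcript of Igf2, had 0.0307, 0 and 0.0312 FPKM in the control libraries and 0 in all OI libraries. These levels rest on few reads and were below the filter of the main fit. When the filter was dropped, none of these neighbours was called.

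**Figure D5:**
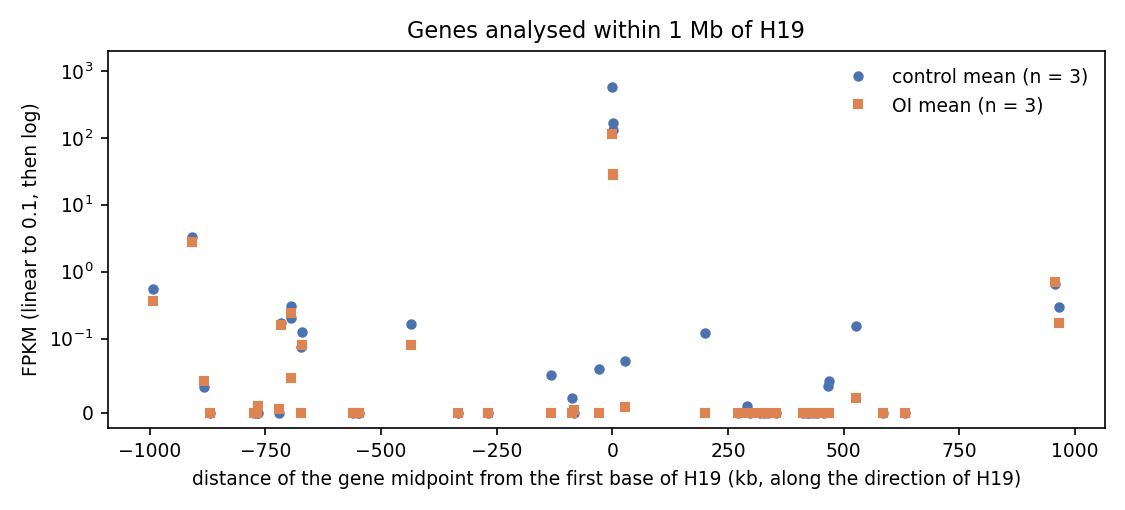
Mean FPKM in control (blue) and OI (orange), n = 3 each, of the 48 genes analysed within 1 Mb of H19, against distance of the gene's midpoint from the first base of H19 in kb; the y axis is linear to 0.1 and logarithmic above. The 3 members stand at the centre, and the other genes lie below 5 FPKM.

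Few other imprinted genes could be measured. Of 67 other genes listed as imprinted, 15 were analysed and 4 were tested. None of the 4 passed limma in either direction, and none had an unadjusted p under 0.05. Their median log2 difference was -0.06, against -0.02 over all tested genes. Peg13, an RNA from an intron of Trappc9, averaged 10.002 ± 0.77 FPKM in control against 9.25 ± 0.18 FPKM with OI. Snrpn, the splicing protein gene of the Prader-Willi domain, was at 4.57 ± 0.26 and 4.50 ± 0.42 FPKM, and Peg10, a retrotransposon-derived gene, at 2.52 ± 0.19 and 2.49 ± 0.22 FPKM (SD, n = 3 each). Kcnq1ot1, the antisense RNA of the neighbouring imprinted domain, lay between 0.0713 and 0.222 FPKM in control and between 0.0759 and 0.104 FPKM with OI. Rtl1 and Mirg of the Dlk1-Dio3 domain were listed at 0 throughout. None of the 28 genes listed as partners or targets of H19 and miR-675, such as Smad1, Smad5, Cdc6 and Igf2r, was analysed.

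The tested genes most like H19 were named by Pearson's r of log2(FPKM + 1) over the 6 libraries, as a description with the members left out. They were Klhl33, a kelch-family gene (r = 0.996, and 0.60 after the group means were subtracted), Entpd4, a Golgi nucleotidase gene (0.995 and 0.25), and the antisense genes Gm16567 (0.995 and 0.39), AC157554.3 (0.994 and 0.62) and Gm11747 (0.993 and 0.12). Within the groups r was lower for all 5. The gap between the group means differed in size among them. Entpd4 averaged 4.84 FPKM in control against 4.36 FPKM with OI, Gm11747 13.97 against 7.59 FPKM, and Gm16567 54.2 against 14.8 FPKM. Since r follows the gap that chose H19, no test is given for these genes.

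The genes least like H19 were Hspa1b, an inducible heat shock protein gene (r = -0.996, and -0.59 after subtraction), AI506816 (-0.993 and -0.52), 0610031O16Rik (-0.987 and -0.54), Gpr137b-ps (-0.987 and -0.35) and Gm17046 (-0.983 and 0.35). All 5 had the higher mean with OI. The gap was small for Hspa1b, at 40.4 FPKM in control against 46.4 FPKM, and wide for Gpr137b-ps, at 12.8 against 31.1 FPKM.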

How the data were processed

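RNA-seq tables of 6 libraries were used, 3 control and 3 OI; a further 3 control and 3 OI samples were not analysed here. The authors deposited FPKM values, 1 table per sample. The submitters' processing notes name StringTie 1.3.3b, HISAT2 2.1.0, cutadapt 2.7 and build mm10. The sources used here give neither counting rule nor strand setting. Each table held 27943 rows, of which 1 with broken annotation was left out. No pair of libraries shared more than 1 identical value among tested genes.

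Genes with 1 FPKM or more in at least 3 libraries (1737) were fitted on log2(FPKM + 1) by limma 3.58.1 (R 4.3.3), trend=TRUE, two-sided, Benjamini-Hochberg over all tested genes. Changes of low genes come out too small on this scale. Proportions were compared by exact permutation, a test added after seeing the data. Reads were recovered from FPKM, deposited gene length and the step of 1 read in genes of 1 exon. The members and lists were chosen with earlier results of these data known. Named genes were the members, list genes and neighbours past the threshold or the 5 of highest level, and the 5 most and 5 least like H19. Other list genes, embedded pairs and sparse neighbours were named after their values were seen. Sequences came from GENCODE M21 and RefSeq, folds from ViennaRNA 2.7.2, and figures from Matplotlib 3.10.9, with SciPy 1.17.1 and pandas 2.3.3 in Python 3.11.15. As alternatives the pseudocount was set to 0.1 or 5, the filter dropped or raised to 5 FPKM, and 3 scalings, trend=FALSE, limma voom on recovered reads, a replicate block and the omission of each library were tried.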

Additional observations from a re-analysis of the deposited data

How the results depend on the processing

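The lower level in OI of H19, Gm27786 and Gm27483 kept its direction under all 16 alternatives, and all 3 genes stayed called under 15 of them. Part of this was fixed in advance. The changes of filter, trend=FALSE and the replicate block cannot alter the fitted differences. The groups did not overlap, so the omission of 1 library could not reverse the direction. In the main fit 2.76% of all tested genes were called. The locus was chosen for this contrast, so nothing is read from the calls of its members. None of the 3 was called after rescaling to a common sum. The log2 difference of H19 was -2.10 with a pseudocount of 5 and -2.08 with quantile normalization, and that of Gm27786 was -2.29 with median-of-ratios scaling. Rescaling to a common sum moved the median of all tested genes to 0.36. It moved the differences to -1.68 for H19, -1.78 for Gm27786 and -1.91 for Gm27483. Control replicate 1, with 70761 FPKM of AY036118 in its sum, was not set apart in this step. Without 1 library the differences of the 3 genes, in the same order, ranged from -2.36 to -2.16, from -2.41 to -2.32 and from -2.54 to -2.35. The number of genes called went from 48 to 14 without a filter, to 7 with the common sum (6 higher and 1 lower) and to 15 to 24 without 1 library, whichever of the 6 was left out. It was 17 with the replicate number as a block (3 higher and 14 lower, against 20 and 28). The labels do not pair the samples. The deviations of same-numbered libraries had correlations of 0.05, 0.14 and -0.08, which cannot show whether the numbers mark a pairing. The number called split into 16 higher and 18 lower with median-of-ratios scaling. No imprinted gene and no neighbour other than the members was called under any of the 16 alternatives; for the neighbours these were added after seeing the data. Neighbours below the filter were not tested in the main fit. With no filter, those above 0 in any library were fitted as well, and none was called.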
